A study of Drosophila melanogaster with 24 samples.

Results

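The genes described here encode subunits of the mitochondrial respiratory chain and of ATP synthase in Drosophila melanogaster. They were chosen by their symbols in the count file, by a fixed pattern of subunit names (ND, Sdh, CoIV, CoV, Cyt-c and ATPsyn with their suffixes) and 9 further symbols (levy, cype, ox, RFeSP, blw, sun, Oscp, mtacp1 and Pdsw). The rule found 28 genes of the 15339 in the file. They comprise 5 genes of complex I, 3 of complex II, 2 of complex III, 2 cytochrome c genes, 8 of complex IV and 8 of ATP synthase. The pattern itself uses names and no measured value. All 28 genes passed the filter on low counts, which left 10324 genes for testing.

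The respiratory chain sits in the inner mitochondrial membrane. Complexes I and II pass electrons from NADH and succinate to ubiquinone, complex III passes them to cytochrome c, and complex IV passes them to oxygen. Complexes I, III and IV pump protons as they do so, and ATP synthase uses the return of the protons to make ATP. Most subunits are encoded in the nucleus, and a small set in the mitochondrial genome, which is not analysed here. Drosophila neuroblasts are the stem cells that divide asymmetrically to produce the neurons of the brain. In other work on flies, the oxidative metabolism of neuroblasts has been tied to their proliferation and to the end of their divisions.

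The series compared 2 kinds of neuroblast along their development. Antennal lobe (AL) neuroblasts were collected from larvae at 24, 36, 50 and 84 h, and mushroom body (MB) neuroblasts from larvae at 24, 50 and 84 h and from pupae at 36 h. Each of the 8 groups had 3 libraries. All animals were kept at 25 °C, and the labels name neither a genotype nor the driver of the GFP by which the cells were picked. Each library was made from a pool of 89 to 121 GFP-labelled cells out of 30 dissociated brains, with RNA amplified before sequencing and ERCC spike-in RNA added. The AL 24 h and AL 84 h groups carry the same 3 recorded cell numbers (106, 108 and 101). Whether libraries of 1 group stem from different cultures is not in the labels, so p-values measure only the spread between these libraries.

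The libraries held 6064190 to 9268184 reads in genes for AL and 3150371 to 5829255 for MB. Levels are given as counts-per-million (CPM) of the TMM-scaled library size, and a count of 3 in a library corresponded to 0.337 to 0.526 CPM in AL and 0.423 to 0.888 CPM in MB, counting error only. The neuroblast genes dpn, mira and ase were present in every library, at 341 to 761, 223 to 539 and 55.2 to 332 CPM. The neuronal gene elav was present too, at 221 to 487 CPM. Of the 7 glial genes looked at, repo stayed between 0 and 6.47 CPM, the haemocyte gene Hml between 0 and 20.0 CPM and the muscle gene Mhc between 0.214 and 29.6 CPM. Summed, however, the 7 glial genes reached 338 to 635 CPM in AL and 321 to 587 CPM in MB libraries. In pooled cells, fewer cells of a type and less RNA per cell cannot be told apart.

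Per length, as transcripts-per-million (TPM) in the authors' deposited table, the catalytic core of ATP synthase led the set. ATPsyn-beta, the catalytic beta subunit, averaged 1577 TPM over the 24 libraries and blw, the alpha subunit, 1552 TPM. Cyt-c-p, the somatic cytochrome c that carries electrons between complexes III and IV, followed at 1257 TPM. Next came levy (complex IV subunit 6A) at 820 TPM and CoVa (subunit 5A) at 660 TPM. At the low end stood SdhC (the membrane anchor of complex II) at 73.1 TPM, SdhB (its iron-sulphur subunit) at 69.6 TPM, ND75 (an iron-sulphur core subunit of complex I) at 60.0 TPM and ox (a small subunit of complex III) at 39.7 TPM. Cyt-c-d, the cytochrome c of the male germ line, averaged 2.53 TPM and had 0 to 21 reads per library, 125 in all. It shares sequence with its neighbour Cyt-c-p and overlaps CG31808, so even these reads are uncertain in origin, and no fold is given for it. The reads of ox are likewise uncertain, because it overlaps mRpL18 on the other strand and the strand setting of the counting is not given in the sources used here. Apart from ox and Cyt-c-d, every gene of the set had 55 to 12127 reads in each library.

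AL neuroblasts held less of the set than MB neuroblasts of the same age. Summed over the 28 genes, AL libraries averaged 4799 ± 395, 4921 ± 187 and 5137 ± 321 CPM at 24, 50 and 84 h, and MB libraries 6976 ± 338, 6637 ± 281 and 6004 ± 386 CPM (SD, n = 3 each). The remaining groups, AL at 36 h and MB in the pupa, averaged 4262 ± 185 and 4885 ± 159 CPM (SD, n = 3 each). As a share of all reads in genes, without TMM scaling, the set took 0.360 to 0.557% in AL libraries and 0.567 to 0.764% in MB libraries, which did not overlap. In scaled CPM the kinds did overlap across ages, with sums of 4702 to 4995 CPM in pupal MB libraries and 4797 to 5434 CPM in AL libraries at 84 h. The lowest of the 8 group means was an AL group for 27 of the 28 genes, with Cyt-c-d as the exception. The highest was an MB group for all 28. Neither was counted over all genes tested, so these counts cannot be called particular to the set.

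Averaged over the 3 matched ages, 22 of the 28 genes were lower in AL and 0 were higher by the quasi-likelihood test of edgeR, with p-values adjusted over all 10324 genes by the method of Benjamini and Hochberg and a threshold of 0.05. Among all genes tested, 10.7% were called lower and 11.2% higher. No gene of the set was higher in AL at an unadjusted p under 0.05 either, and DESeq2 called 22 lower and 0 higher and limma 19 lower and 0 higher. The median log2 fold change of the 28 genes was -0.43, against -0.02 over all genes. The lower genes were 4 of 5 in complex I, 3 of 3 in complex II, 1 of 2 in complex III, 1 of 2 cytochrome c genes, 5 of 8 in complex IV and 8 of 8 in ATP synthase. The genes that did not pass were Pdsw, ox, Cyt-c-d, CoVa, levy and CoVIIc.

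**Figure D1:**
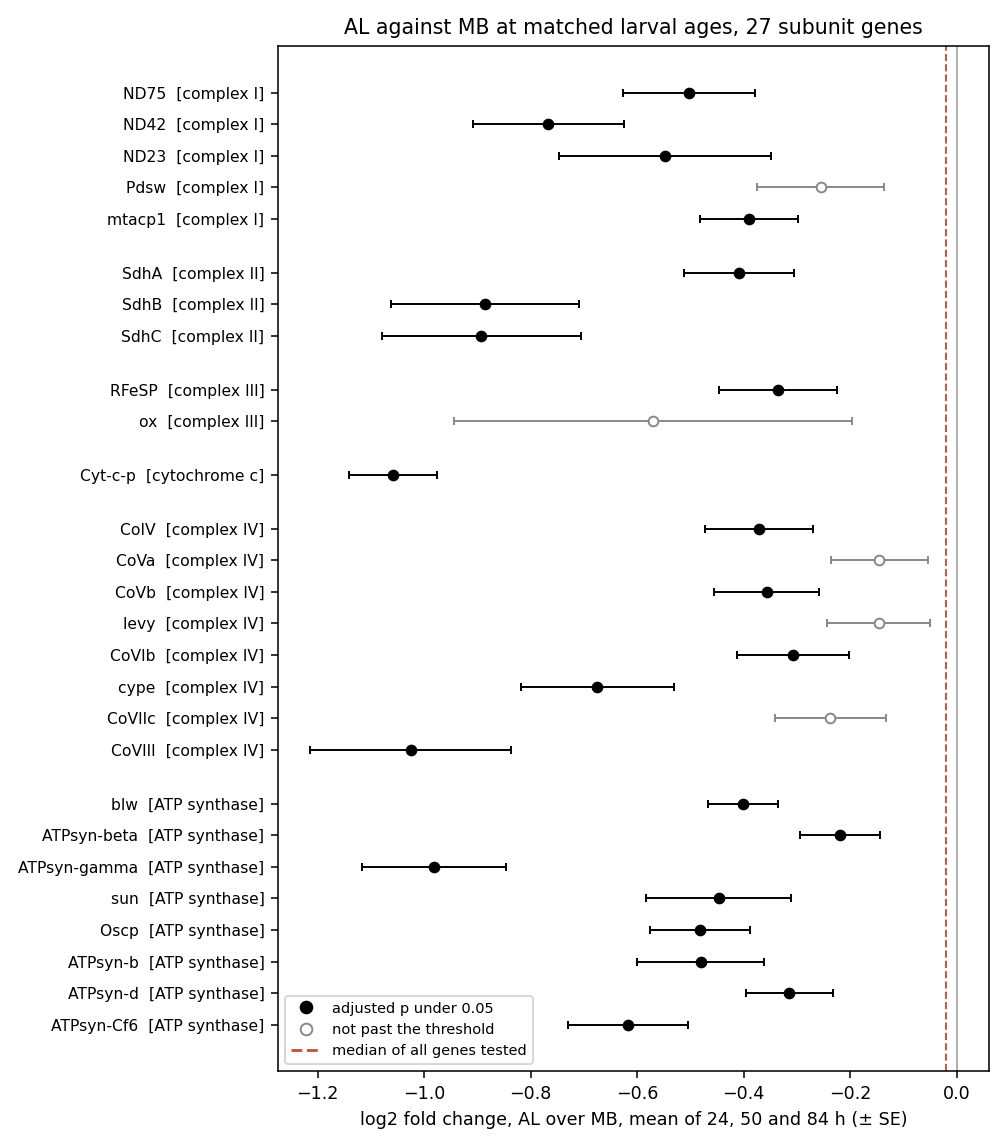
Log2 fold change of AL over MB neuroblasts, averaged over 24, 50 and 84 h, with its standard error, for 27 genes grouped by complex (Cyt-c-d is left out). Filled points passed the adjusted threshold of 0.05 and the dashed line is the median of all genes tested. Cyt-c-p lies furthest to the left of all at -1.06, and every filled point lies left of 0.

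Markers of neuroblasts and of other cell types were set beside this result. The 8 neuroblast genes summed to 5116 to 7463 CPM in AL and 3487 to 5810 CPM in MB libraries, and 6 of the 8 were higher and 0 lower in AL. The 7 neuron genes in the file summed to 412 to 545 CPM in AL and 344 to 656 CPM in MB libraries, and 0 of 7 were called. Of the 7 glial genes, 1 was higher and 2 were lower in AL. Of the 5 haemocyte, 6 muscle, 4 trachea and epidermis and 3 germ line genes tested, 1 of each list was lower in AL and 0 higher. The part of these markers in the result was not tested.

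In complex I, ND42, an accessory subunit, had 36.0, 39.5 and 22.8 CPM at 24 h, 36.7, 26.8 and 58.2 at 50 h and 57.4, 41.9 and 67.2 at 84 h in AL. In MB it had 67.8, 65.1 and 66.3 CPM at 24 h, 86.4, 83.3 and 77.4 at 50 h and 58.3, 74.1 and 67.3 at 84 h. The groups were apart at 24 and 50 h and overlapped at 84 h. The matched log2 fold change of ND42 (dm3, chromosome 3R, 17853508 to 17855115, plus strand) was -0.77 ± 0.14 (SE, adjusted p = 4.93e-05). The iron-sulphur subunit ND23 passed with an adjusted p of 0.0411, but the call was lost in 10 of the 18 fits that left out 1 library, at log2 fold changes of -0.54 to -0.45.

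All 3 genes of complex II, the enzyme shared with the tricarboxylic acid cycle, were lower in AL. SdhC had 18.5, 13.2 and 13.2 CPM at 24 h, 7.88, 18.6 and 19.4 at 50 h and 22.2, 26.9 and 28 at 84 h in AL. In MB it had 33.5, 48.2 and 46.1 CPM at 24 h, 30.5, 45.1 and 34.5 at 50 h and 18.3, 28.7 and 25.2 at 84 h. The kinds of neuroblast were apart at 24 and 50 h and intermingled at 84 h, and the matched log2 fold change was -0.89 ± 0.19 (SE, adjusted p = 0.000303). SdhB lay below its MB libraries at each of the 3 ages, with matched means of 24.2 CPM in AL and 45.1 CPM in MB and a log2 fold change of -0.89 ± 0.18 (SE, adjusted p = 0.000144). SdhB shares its place in the genome with CG15237 on the other strand, whose reads came to 0.446 times its own. The same limit holds for sun, with CG8578 at 0.646 times its reads, and for levy, with pita at 0.434 times. SdhA, the flavoprotein, had matched means of 129 CPM in AL and 171 CPM in MB (log2 fold change -0.41 ± 0.10, SE, adjusted p = 0.00251).

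Cyt-c-p (dm3, chromosome 2L, 16719874 to 16722659, plus strand) differed most. Its AL libraries had 358, 198 and 334.5 CPM at 24 h, 247, 231 and 218 at 50 h and 211, 205 and 218 at 84 h. The MB libraries had 658, 666 and 715 CPM at 24 h, 526, 606 and 518 at 50 h and 353, 346 and 355 at 84 h. No AL library reached an MB library of its age. The matched log2 fold change was -1.06 ± 0.08 (SE, adjusted p = 5.29e-14), a level 2.08-fold lower in AL. In complex III, RFeSP, the Rieske iron-sulphur protein, was lower in AL by a smaller margin, at -0.33 ± 0.11 (SE, adjusted p = 0.0235), and the call was lost in 6 of 18 fits without 1 library, at -0.31 to -0.27.

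Complex IV, the oxidase that reduces oxygen to water, was split. CoVIII (subunit 8), with matched means of 15.4 CPM in AL and 31.6 CPM in MB, had a log2 fold change of -1.03 ± 0.19 (SE, adjusted p = 4.40e-05). It lay below MB in every library at each age. CoIV (subunit 4) had matched means of 87.6 CPM in AL and 114 CPM in MB, at -0.37 ± 0.10 (SE, adjusted p = 0.00534), and CoVb (subunit 5B) 132 CPM in AL and 168 CPM in MB, at -0.36 ± 0.10 (SE, adjusted p = 0.00636). CoVIb (subunit 6B) stood at -0.31 ± 0.11 (SE, adjusted p = 0.029), and its call was lost in 8 of 18 fits without 1 library, at -0.30 to -0.25. CoVa, levy and CoVIIc, subunits 5A, 6A and 7C, did not pass the test.

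The 8 genes of ATP synthase were all lower in AL, by unequal amounts. ATPsyn-gamma, the central rotor shaft, had matched means of 57.4 CPM in AL and 113 CPM in MB and a log2 fold change of -0.98 ± 0.14 (SE, adjusted p = 2.08e-07). ATPsyn-Cf6, coupling factor 6, had matched means of 60.2 CPM in AL and 94.4 CPM in MB, and blw 1374 CPM in AL and 1816 CPM in MB. ATPsyn-d of the peripheral stalk was lower by little, at -0.31 ± 0.08 (SE, adjusted p = 0.00341), but its AL libraries lay below its MB libraries at each age. The smallest difference was that of ATPsyn-beta, at -0.22 ± 0.08 (SE, adjusted p = 0.0312), whose call was lost in 8 of 18 fits without 1 library, at -0.21 to -0.16. The epsilon subunit sun (adjusted p = 0.0136) lost its call without MB 24 h replicate 2 or MB 50 h replicate 2, at -0.39 to -0.38. For 5 of the 28 genes (mtacp1, SdhB, Cyt-c-p, CoVIII and ATPsyn-d), every AL library lay below every MB library at each of the 3 ages, as it did for 2.28% of all genes tested.

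By age, more genes passed at 24 and 50 h than at 84 h. At 24 h, 12 of the 28 genes were lower in AL and 0 higher (all genes tested, 6.10% lower and 4.75% higher). At 50 h, 12 were lower and 0 higher (all genes tested, 4.94% lower and 6.39% higher). At 84 h, 3 were lower and 0 higher (all genes tested, 3.25% lower and 4.42% higher). The medians of the 28 genes were -0.53, -0.62 and -0.24 at the 3 ages, against 0.01, -0.01 and -0.04 over all genes. Of the 12 genes called at 24 h and the 12 at 50 h, 9 were shared, 75% of each list. The overlap among all genes called at these ages was not counted, so this share cannot be called particular to the set. No gene of the set was higher in AL at any of the 3 ages at an unadjusted p under 0.05 in edgeR, and DESeq2 and limma called none higher.

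The 9 genes lower at both 24 and 50 h were ND42, SdhB, SdhC, RFeSP, Cyt-c-p, CoVIII, ATPsyn-gamma, Oscp and ATPsyn-Cf6. SdhC was furthest apart at 24 h, with a log2 fold change of -1.51 ± 0.33 (SE, adjusted p = 0.00107), 2.84-fold lower in AL. CoVb, blw and ATPsyn-beta were called at 24 h and not at 50 h, at -0.64, -0.42 and -0.51. CoIV, cype (subunit 6C) and ATPsyn-b (peripheral stalk) were called at 50 h and not at 24 h, at -0.72, -0.98 and -0.86. At 84 h the called genes were Cyt-c-p (-0.73 ± 0.14, SE, adjusted p = 0.000331), blw (-0.53 ± 0.11, SE, adjusted p = 0.00149) and ATPsyn-gamma (-0.92 ± 0.23, SE, adjusted p = 0.00732). Of these calls, SdhC, Cyt-c-p and Oscp at 24 h, Cyt-c-p, CoIV, ATPsyn-gamma, ATPsyn-b and ATPsyn-Cf6 at 50 h, and Cyt-c-p and blw at 84 h held in every fit that left out 1 library. ATPsyn-gamma at 84 h missed the threshold when either AL replicate 3 or MB replicate 1 of that age was left out, at -0.77 to -0.74. Without AL 24 h replicate 3 the count at 24 h was 8, and without MB 50 h replicate 2 the count at 50 h was 7.

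**Figure D2:**
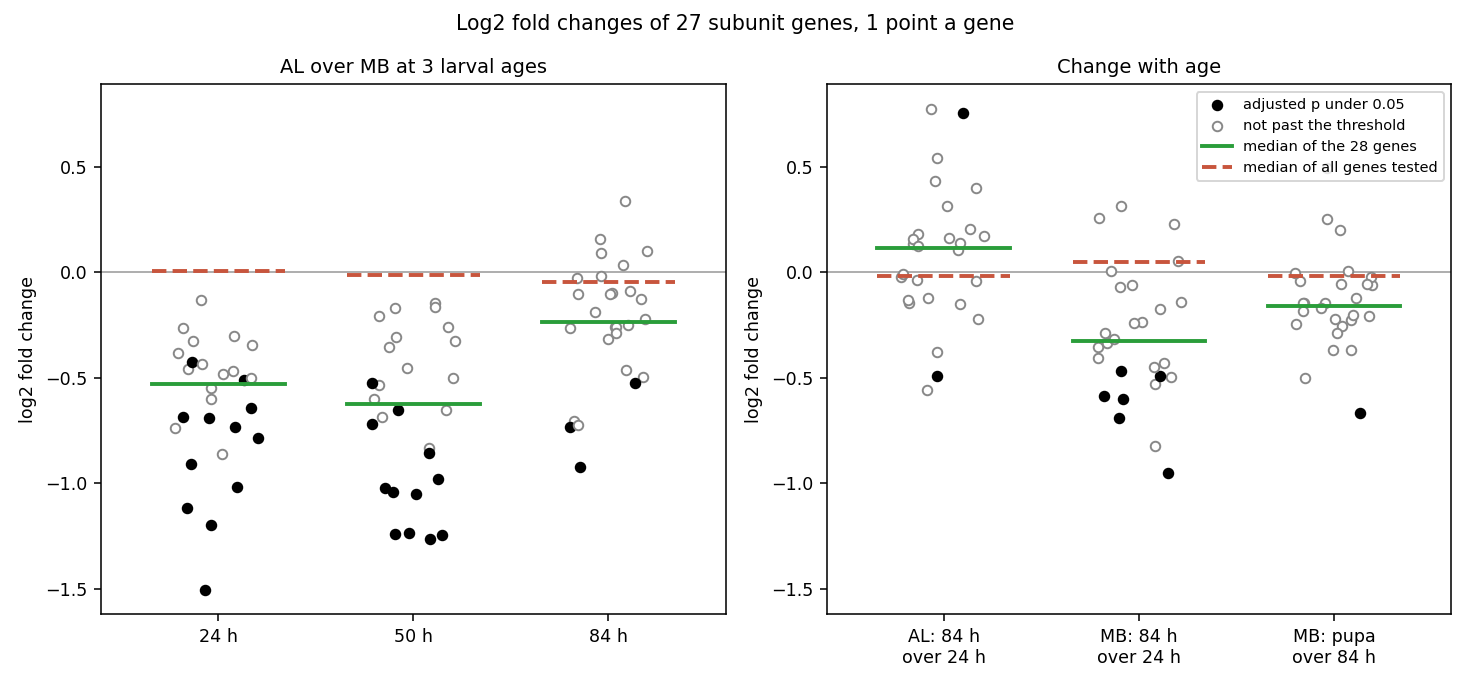
Log2 fold changes of 27 genes (points, Cyt-c-d left out); green bars are medians of all 28 genes and dashed bars medians of all genes tested. The left panel gives AL over MB at 24, 50 and 84 h, with medians of -0.53, -0.62 and -0.24; the right panel gives the later over the earlier age within AL and within MB.

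Another scaling moved these counts. When levels were scaled to ERCC spike-in reads and the recorded cell numbers instead of TMM, the median of all genes for AL over MB was -1.05 at 24 h, 0.35 at 50 h, -0.27 at 84 h and -0.33 over the matched ages. The medians of the 28 genes lay below these by 0.56, 0.60, 0.16 and 0.40, at -1.61, -0.25, -0.43 and -0.73. The set had 27 genes lower at 24 h and 1 at 50 h with this scaling, 2 at 84 h and 26 over the matched ages, so that the order of the ages by count did not hold for 50 h. At 84 h the call of blw was lost with it, at -0.75. The same scaling called 92 genes higher and 3997 lower among all genes at 24 h, against 490 and 630 with TMM. At 50 h it called 593 higher and 117 lower, against 660 and 510 with TMM. At 84 h it called 81 higher and 254 lower, against 456 and 336 with TMM, and over the matched ages 237 and 1785, against 1153 and 1107 with TMM.

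**Figure D3:**
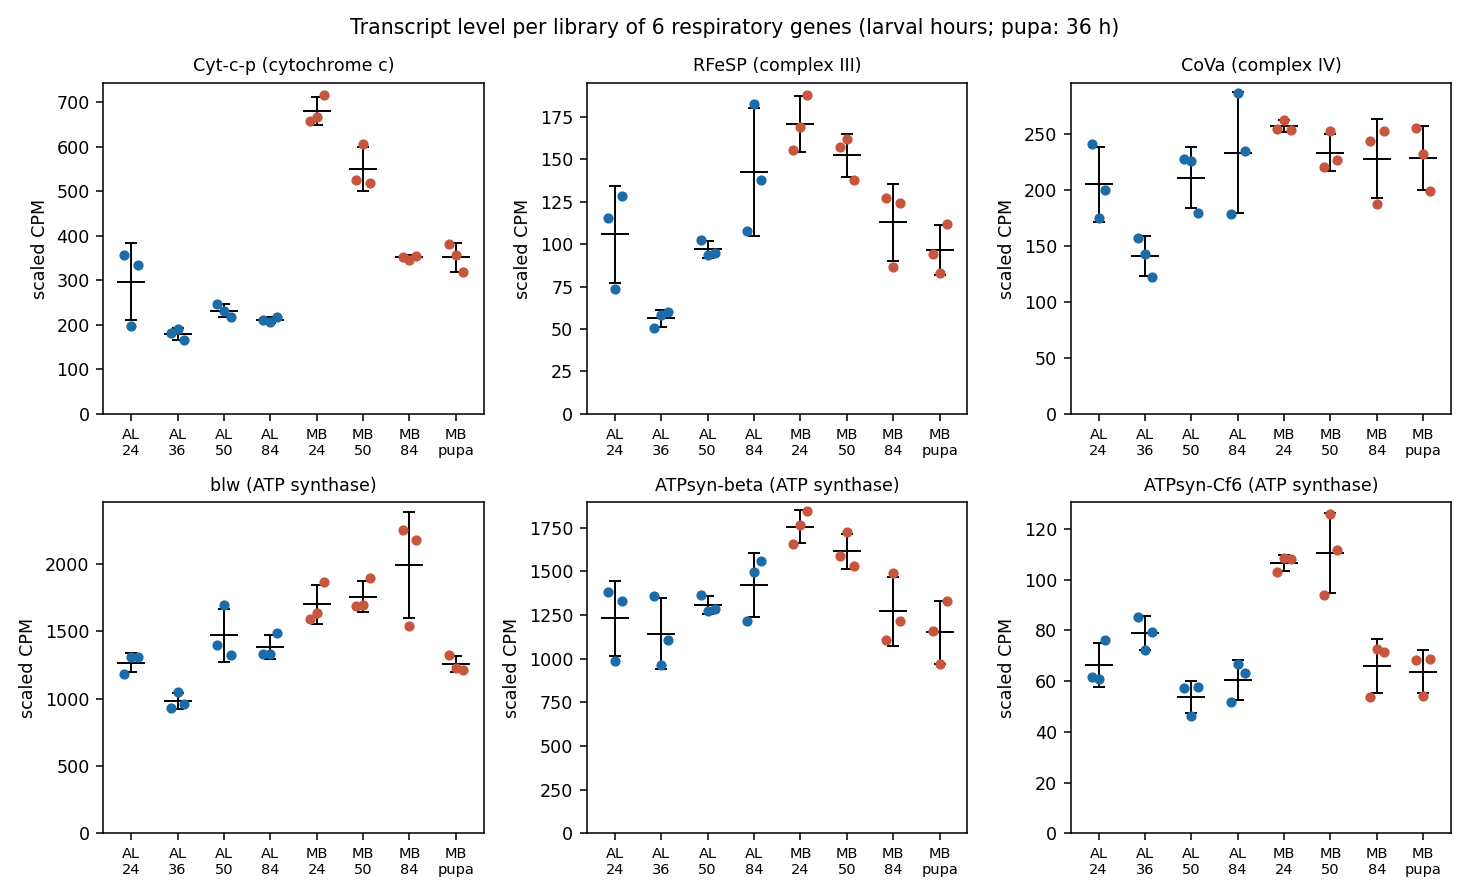
TMM-scaled CPM of 6 genes in every library (points) with the mean and SD of each group (n = 3), AL groups left of MB groups in each panel. Cyt-c-p in MB averages 680, 550, 352 and 352 CPM at 24, 50 and 84 h and in the pupa, and blw in MB 1700, 1758, 1991 and 1254 CPM.

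Within MB neuroblasts, several genes of the set were lower at the end of larval life than at 24 h. Over the 4 MB ages, 11 of the 28 genes changed, against 17.7% of all genes tested. At 84 h, 6 of the 28 were lower than at 24 h and 0 higher (all genes tested, 8.63% lower and 5.81% higher). The 6 were Cyt-c-p, ATPsyn-beta, ATPsyn-Cf6, RFeSP, levy and Pdsw, an accessory subunit of complex I. None was higher at an unadjusted p under 0.05 in edgeR or by DESeq2, while limma called 1 higher. In all, 22 of the 28 fold changes were negative, and their median was -0.32, against 0.05 over all genes.

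Cyt-c-p led these changes. Its 84 h libraries, at 353, 346 and 355 CPM, lay below the 24 h libraries, at 658, 666 and 715 CPM. The log2 fold change was -0.95 ± 0.14 (SE, adjusted p = 1.89e-06), a level 1.93-fold lower at 84 h, and the call held in every fit without 1 library. ATPsyn-Cf6 had 53.8, 72.8 and 71.7 CPM at 84 h, against 103, 109 and 108 CPM at 24 h, without overlap. Its log2 fold change was -0.69 ± 0.20 (SE, adjusted p = 0.0109), and the call was lost without MB 84 h replicate 1, at -0.56.

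RFeSP (dm3, chromosome 2L, 1612696 to 1614182, minus strand) had 127, 86.7 and 124 CPM at 84 h, against 155, 169 and 188 CPM at 24 h. The ages did not overlap, and the log2 fold change was -0.60 ± 0.19 (SE, adjusted p = 0.028). ATPsyn-beta (dm3, chromosome 4, 1052490 to 1055183, plus strand) had 1106, 1491 and 1217 CPM at 84 h, against 1655, 1768 and 1843 CPM at 24 h. It too was below in every library, with a log2 fold change of -0.47 ± 0.13 (SE, adjusted p = 0.0107). The call of RFeSP was lost without MB 24 h replicate 2, MB 24 h replicate 3 or MB 84 h replicate 2, at -0.59 to -0.44. The same 3 omissions ended that of levy, at -0.51 to -0.33. The call of ATPsyn-beta was lost without MB 24 h replicate 2 or 3 or MB 84 h replicate 1 or 3, at -0.44 to -0.38, and that of Pdsw in all 6 fits, at -0.63 to -0.51. Without MB 24 h replicate 2 the count of lower genes was 2. With spike-in and cell number scaling 1 gene was called, while the median of all genes was -0.18 and that of the 28 genes lay 0.39 below it, at -0.57. Among all genes that scaling called 210 higher and 729 lower at 84 h, against 600 and 891 with TMM.

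The summed markers differed between these ages too. The neuroblast genes summed to 3487 to 5008 at 84 h and 5404 to 5810 CPM at 24 h in MB, with 1 of 8 higher and 4 lower. The neuron genes summed to 344 to 439 at 84 h and 562 to 656 CPM at 24 h, with 0 of 7 higher and 3 lower. The glial genes summed to 321 to 392 CPM at 84 h and 514 to 587 CPM at 24 h, with 0 of 7 higher and 1 lower. In the other direction, 4 genes of trachea and epidermis summed to 54.7 to 130 CPM at 84 h and 5.77 to 15 CPM at 24 h, with 2 of 4 higher, and 3 germ line genes to 76.8 to 101 CPM at 84 h and 44.0 to 61.2 CPM at 24 h, with 1 of 3 higher. Fat body genes summed to 13 to 17 CPM at 84 h and 5.57 to 7.75 CPM at 24 h, with 1 of 4 higher. The sums of these 6 lists did not overlap between the ages, and their part in the fall of the 6 genes was not tested.

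The alpha subunit of ATP synthase, unlike the beta subunit, was not called between 84 and 24 h in MB, and the difference between the 2 genes was not tested. blw had 1594, 1638 and 1868 CPM at 24 h, 1686, 1693 and 1893 at 50 h, 2254, 1538 and 2180 at 84 h and 1322, 1227 and 1214 CPM in the pupa. Replicate 2 at 84 h lay below every 24 h and 50 h library, and replicates 1 and 3 above every one of them. Between 84 and 24 h the log2 fold change of blw was 0.23 ± 0.11 (SE, adjusted p = 0.19), which did not pass. In the pupa blw fell below every 84 h library, with a log2 fold change of -0.67 ± 0.11 (SE, adjusted p = 0.000125). Per length, the ratio of blw to ATPsyn-beta averaged 0.877 ± 0.0396, 0.991 ± 0.117, 1.47 ± 0.475 and 1.00 ± 0.162 in MB at 24, 50 and 84 h and in the pupa (SD, n = 3 each), with 1.85, 0.934 and 1.62 in the 3 libraries at 84 h. In AL it averaged 0.957 ± 0.219, 0.798 ± 0.185, 1.02 ± 0.161 and 0.889 ± 0.0962 at 24, 36, 50 and 84 h (SD, n = 3 each). These ratios are a description and were not tested.

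From 84 h to the pupa the set of MB genes called was small. In the pupa, 1 of the 28 genes, blw, was lower than at 84 h and 0 were higher (all genes tested, 1.88% lower and 0.726% higher). No gene was higher by DESeq2, by limma or at an unadjusted p under 0.05 in edgeR. The fold changes were negative for 24 of 28 genes, with a median of -0.16, against -0.02 over all genes. Cyt-c-p, at 381, 356 and 318 CPM in the pupa and 353, 346 and 355 CPM at 84 h, had means of 352 CPM at both ages. With spike-in and cell number scaling the call of blw was lost, and 0 genes of the set were called, 1 at an unadjusted p under 0.05. Neuron genes summed to 567 to 631 CPM in the pupa, against 344 to 439 CPM at 84 h (1 of 7 higher, 0 lower). For trachea and epidermis the sums were 12.4 to 33.7 against 54.7 to 130 CPM (0 of 4 higher, 2 lower). Of 8 neuroblast genes, 1 was higher and 1 lower. The part of these markers was not tested.

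Against 24 h, 10 of the 28 genes were lower in the pupa and 0 higher (all genes tested, 10.6% lower and 6.08% higher), and none was higher by DESeq2, by limma or at an unadjusted p under 0.05 in edgeR. They were Cyt-c-p (-0.95 ± 0.14, SE), RFeSP (-0.82 ± 0.19, SE), ATPsyn-Cf6, Pdsw, CoIV, ATPsyn-beta (-0.61 ± 0.13, SE), Oscp, levy, ATPsyn-d and blw (-0.44 ± 0.11, SE). In all 10 every pupal library lay below every 24 h library. The 10 were picked by the test on these same libraries, and the share of all genes so separated was not counted. Fold changes were negative for 27 of 28 genes, with a median of -0.39, against 0.06 over all genes. The comparisons of 84 h and of the pupa with 24 h share the same 3 libraries. The calls of RFeSP, Cyt-c-p, blw and ATPsyn-beta held in every fit without 1 library. Those of CoIV and ATPsyn-d were lost without pupa replicate 1, at -0.55 and -0.47, and that of ATPsyn-Cf6 without pupa replicate 2, at -0.61. Those of Pdsw, levy and Oscp were lost in 3 or 4 of 6 fits, at -0.65 to -0.55, -0.55 to -0.41 and -0.52 to -0.48. Without pupa replicate 1 the count was 6. With spike-in and cell number scaling it was 2, with the median of the set 0.47 below that of all genes (-0.58 and -0.11). Among all genes that scaling called 242 higher and 876 lower, against 628 and 1097 with TMM. Neuroblast genes summed to 4199 to 4680 CPM in the pupa and 5404 to 5810 CPM at 24 h, with 2 of 8 higher and 4 lower. Neuron genes summed to 567 to 631 CPM in the pupa and 562 to 656 CPM at 24 h, with 0 of 7 higher and 2 lower. Of 7 glial genes 0 were higher and 1 lower, and of 6 muscle genes 1 was higher and 1 lower. Of 4 fat body and 3 germ line genes, 1 of each list was higher and 0 lower. The part of these markers in the 10 falls was not tested.

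Over the 4 MB ages as a whole, the calls of RFeSP, Cyt-c-p, blw, ATPsyn-beta and ATPsyn-Cf6 held in all 12 fits without 1 library. By limma the calls of RFeSP and ATPsyn-beta were lost, at an adjusted p of 0.14 and 0.349. That of CoIV (adjusted p = 0.00661) was lost without pupa replicate 1, at an adjusted p of 0.068, and that of levy (adjusted p = 0.0169) without MB 24 h replicate 3 or pupa replicate 2, at 0.061 to 0.074. Those of Pdsw, Oscp, ATPsyn-b and ATPsyn-d (adjusted p = 0.025 to 0.0401) were lost in 6 to 10 fits. Without pupa replicate 1 the count was 6. With spike-in and cell number scaling it was 20. The share of all genes called with that scaling is not given here, so the 20 cannot be read as particular to the set.

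In AL neuroblasts the 36 h libraries were the lowest of the 4 ages for RFeSP, Cyt-c-p, blw and CoVa. Over the 4 AL ages, 7 of the 28 genes changed, against 15.3% of all genes tested. They were RFeSP, blw, Cyt-c-p, CoVa, cype, ND42 and ATPsyn-d. Of these, RFeSP, Cyt-c-p, blw and ATPsyn-d also changed over the MB ages, 57.1% of the 7 AL genes and 36.4% of the 11 MB genes. The like overlap among all genes was not counted. Cyt-c-p in AL had 358, 198 and 334.5 CPM at 24 h, 181, 192 and 166 at 36 h, 247, 231 and 218 at 50 h and 211, 205 and 218 at 84 h (adjusted p = 0.00128). The 36 h libraries lay below those of each other age, and replicate 2 at 24 h lay among the later ones. With spike-in and cell number scaling the 4-age call of Cyt-c-p in AL was lost, at an adjusted p of 0.231. Those of cype and ATPsyn-d were lost too, at 0.616 and 0.756, while RFeSP, blw, CoVa and ND42 kept theirs.

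RFeSP had 115, 73.3 and 129 CPM at 24 h, 50.7, 58.0 and 60.1 at 36 h, 103, 93.4 and 94.5 at 50 h and 108, 182 and 138 at 84 h in AL (adjusted p = 1.47e-05). Its 36 h libraries were again the lowest. blw had 1185, 1306 and 1310 CPM at 24 h, 930, 1048 and 962 at 36 h, 1396, 1696 and 1322 at 50 h and 1332, 1330 and 1488 at 84 h (adjusted p = 0.000931). The 36 h libraries were lowest, those of 24 h next, and the 2 later ages overlapped above them. CoVa had 241, 175 and 200 CPM at 24 h, 158, 143 and 122 at 36 h, 228, 226 and 179 at 50 h and 179, 287 and 235 at 84 h (adjusted p = 0.00454). With replicate 3 at 36 h left out, CoVa missed the threshold, at an adjusted p of 0.065.

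The other 3 calls were closer to the threshold, with adjusted p of 0.0437 for cype, 0.0451 for ND42 and 0.0499 for ATPsyn-d, and were lost in 7, 8 and 10 of the 12 fits without 1 library. At 36 h these 3 ran opposite to the genes above: cype averaged 55.9 CPM, ND42 56.6 CPM and ATPsyn-d 178 CPM, in each case the highest of the 4 AL means. For ND42 the 84 h mean was close to this, at 55.5 ± 12.8 CPM (SD, n = 3). Without AL 36 h replicate 3 the count of changed genes was 3, and DESeq2 called 11.

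Genes of the set ran both ways at 36 h in AL. Among the 4 AL means, that at 36 h was the lowest for 12 genes and the highest for 13. The same was not counted over all genes tested, so it cannot be called particular to the set. The 12 were ND75, mtacp1, RFeSP, Cyt-c-p, Cyt-c-d, CoVa, CoVb, levy, CoVIb, CoVIIc, blw and ATPsyn-beta, with levels over the 24 libraries of 2.53 to 1577 TPM and a median of 454 TPM. The 13 were ND42, ND23, SdhB, SdhC, ox, cype, CoVIII, ATPsyn-gamma, sun, Oscp, ATPsyn-b, ATPsyn-d and ATPsyn-Cf6, with levels of 39.7 to 500 TPM and a median of 122 TPM. The levels of these lists overlap, and no test of level was made. These 13 held 6 of the 8 ATP synthase genes, all but the alpha and beta subunits. MB has no 36 h larval group to set beside it.

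**Figure D4:**
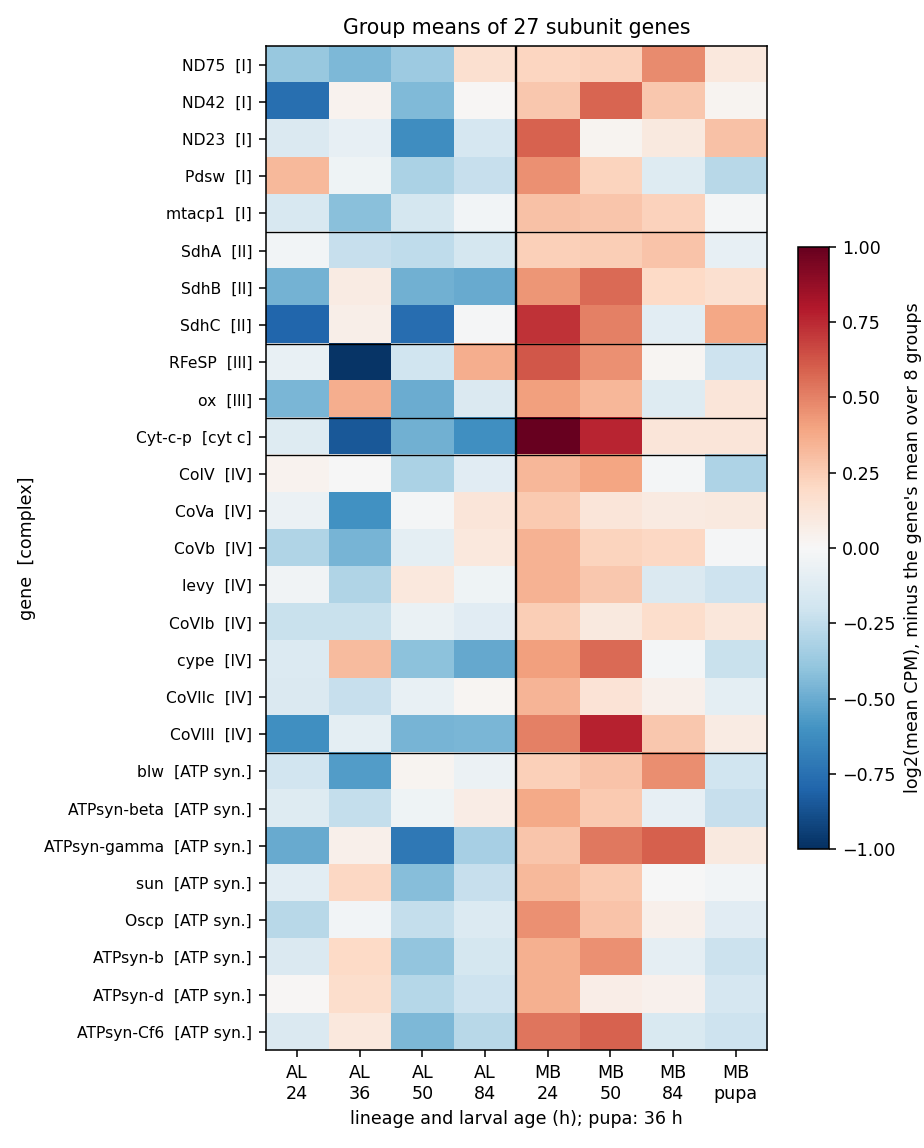
Log2 of the group mean CPM minus its mean over the 8 groups for 27 genes by complex (Cyt-c-d left out), on a colour scale from -1 to 1, with AL groups left of MB groups. The AL columns are mostly below and the MB columns at 24 and 50 h mostly above the mean of a gene, and the AL 36 h column holds values on both sides.

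Between 84 and 24 h in AL, 1 of the 28 genes was higher and 1 lower (all genes tested, 5.67% higher and 6.70% lower). ND42 had 57.4, 41.9 and 67.2 CPM at 84 h, against 36.0, 39.5 and 22.8 CPM at 24 h, without overlap, and a log2 fold change of 0.76 ± 0.25 (SE, adjusted p = 0.0345). Cyt-c-p had 211, 205 and 218 CPM at 84 h, against 358, 198 and 334.5 CPM at 24 h, and the libraries overlapped through replicate 2 at 24 h. Its log2 fold change was -0.49 ± 0.14 (SE, adjusted p = 0.0149). Of the markers, 3 of 7 neuron genes, 2 of 7 glial genes and 2 of 5 haemocyte genes were lower at 84 h and 0 higher, and 1 of 8 neuroblast genes was higher and 2 lower. In the other direction, 1 of 4 fat body, 1 of 4 trachea and epidermis and 1 of 3 germ line genes were higher and 0 lower. The glial genes summed to 338 to 401 CPM at 84 h and 442 to 635 CPM at 24 h. The germ line genes summed to 47.2 to 74.3 CPM at 84 h and 17.8 to 28.1 CPM at 24 h. The part of these markers in the result was not tested. Fold changes of the set were positive for 15 genes and negative for 13, with a median of 0.12, against -0.02 over all genes. ND42 missed the threshold when replicate 3 of 24 h, or replicate 1 or 3 of 84 h, was left out, at 0.56 to 0.73. Cyt-c-p missed it when replicate 1 or 3 of 24 h, or replicate 2 of 84 h, was left out, at -0.47 to -0.33. Without AL 24 h replicate 3 the count was 0, limma called 0, and a fit of the compared groups alone called 0. With spike-in and cell number scaling Cyt-c-p turned to 0.12, at a median of 0.59 over all genes and of 0.70 over the set. That scaling called 6 genes of the set, and 1488 genes higher and 150 lower among all genes, against 585 and 692 with TMM.

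The difference between these courses was tested as the AL change minus the MB change between 24 and 84 h. It was higher than 0 for 3 of the 28 genes and lower for 0 (all genes tested, 2.93% higher and 1.78% lower), with 9 higher and 0 lower at an unadjusted p under 0.05. The 3 were RFeSP, ATPsyn-beta and SdhC, and in each the level at 84 h lay above that at 24 h in AL and below it in MB, by the group means. None of these 3 rises was called in AL. In MB the falls of RFeSP and ATPsyn-beta were called, and that of SdhC was not. RFeSP averaged 143 CPM in AL at 84 h, against 106 CPM at 24 h, and 113 CPM in MB at 84 h, against 171 CPM at 24 h, a difference of 1.03 ± 0.27 (SE, log2, adjusted p = 0.0162). SdhC averaged 25.7 CPM in AL at 84 h, against 15 CPM at 24 h, and 24.1 CPM in MB at 84 h, against 42.6 CPM at 24 h, a difference of 1.60 ± 0.46 (SE, log2, adjusted p = 0.0309). ATPsyn-beta averaged 1421 CPM in AL at 84 h, against 1232 CPM at 24 h, and 1271 CPM in MB at 84 h, against 1755 CPM at 24 h, a difference of 0.67 ± 0.18 (SE, log2, adjusted p = 0.024). Of the 28 differences 24 were positive, with a median of 0.38, against -0.04 over all genes.

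None of these 3 calls held in all 12 fits without 1 library. RFeSP missed the threshold when replicate 2 of AL at 24 h or at 84 h was left out, or replicate 3 of MB at 24 h, or replicate 2 of MB at 84 h, at 0.82 to 0.96. SdhC lost it in 8 fits, at 1.44 to 1.63, and ATPsyn-beta in 7, at 0.53 to 0.67. The first 3 of these omissions each gave a count of 0, with 5, 8 and 4 genes at an unadjusted p under 0.05. With spike-in and cell number scaling it was 11, at a median of 0.81 over all genes and of 1.24 over the set, and 993 genes were called higher and 86 lower among all genes, against 302 and 184 with TMM. Across the 11 comparisons, ox, Cyt-c-d and CoVIIc were never called.

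Further subunits were looked at from an incomplete list of 37 nuclear genes whose symbols fall outside the naming rule, all 37 of which were tested. In AL against MB at matched ages, 22 of the 37 were lower and 0 higher, with a median of -0.50, so that of the 65 genes of both lists 44 were lower in AL. None of the 37 was higher at an unadjusted p under 0.05 in edgeR, and DESeq2 called 22 lower and limma 18. The smallest adjusted p belonged to the gene for subunit g of ATP synthase (ATPsynG by its current name), at -1.27 ± 0.13 (SE, adjusted p = 3.53e-10). CG32230, the MLRQ subunit of complex I, stood at -0.85 ± 0.13 (SE, adjusted p = 1.78e-06) and CG6020, an accessory subunit of the same complex, at -1.06 ± 0.17 (SE, adjusted p = 4.88e-06). In 5 of the 37, every AL library lay below every MB library at each matched age.

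The same 37 genes were then compared between ages. In MB at 84 h against 24 h, 0 of the 37 were called by edgeR (all genes tested, 8.63% lower and 5.81% higher). At an unadjusted p under 0.05, 2 were lower and 0 higher, while 31 fold changes were negative with a median of -0.22. Of the 37, DESeq2 called 0 and limma 1 higher. Of the 65 genes of both lists, 6 were lower and 0 higher, a share near that of all genes. All 6 belong to the set chosen by the naming rule. The median of the 65 genes was -0.24, against 0.05 over all genes. In the pupa against 24 h, 5 of the 37 were lower (all genes tested, 10.6%), a share near that of all genes, among them CG1746, the membrane-ring subunit c of ATP synthase, CG3731, a core subunit of complex III, and CG9603, subunit 7A of complex IV. In AL at 84 h against 24 h, 1 of 37 was higher (all genes tested, 5.67%), the complex I gene l(2)35Di. It had a mean of 51.4 CPM at 84 h, against 16.4 CPM at 24 h, and a log2 fold change of 1.65 ± 0.28 (SE, adjusted p = 2.61e-05). l(2)35Di was also the 1 gene of the 37 for which the AL change minus the MB change passed, at 1.66 ± 0.39 (SE, adjusted p = 0.00505). For that difference 2.93% of all genes tested were higher and 1.78% lower. Both counts are of 1 gene and are not a result about the 37.

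The pathways that feed the chain were set beside it. Of 20 genes of the tricarboxylic acid cycle and pyruvate dehydrogenase, 10 were lower and 1 higher in AL than in MB at matched ages, with a median of -0.35, and Mdh2, the mitochondrial malate dehydrogenase, led them at -1.45 ± 0.12 (SE, adjusted p = 1.83e-13). Of 12 glycolytic genes, 10 were lower and 1 higher in AL, with a median of -0.64. In MB at 84 h against 24 h, 11 of the 12 were higher and 0 lower, with a median of 1.21. Ald, the aldolase, had the smallest adjusted p of them, with a log2 fold change of 2.55. ImpL3, the lactate dehydrogenase, had the largest log2 fold change, at 3.14. Of the 20 cycle genes 2 were lower and 0 higher, a share near the 8.63% of all genes that were lower. In the pupa against 84 h, 11 of the 12 were lower and 0 higher, with a median of -1.55. In AL at 84 h against 24 h, 8 of the 12 were higher and 0 lower, with a median of 0.85.

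**Figure D5:**
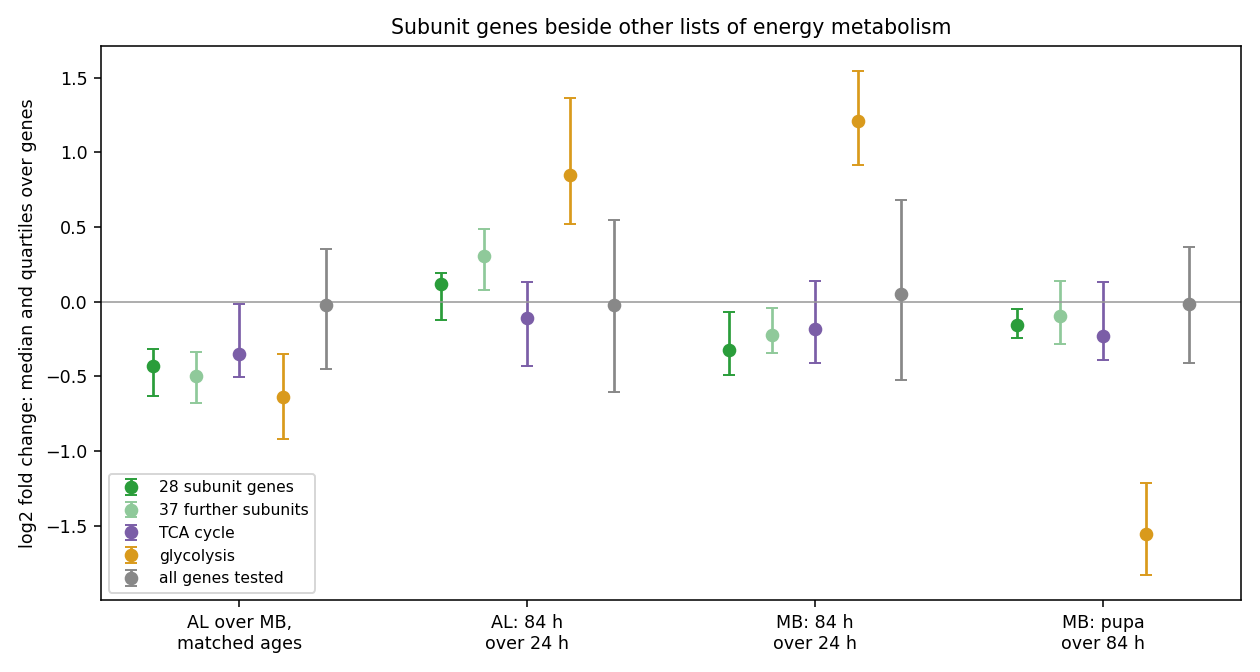
Median and quartiles of the log2 fold changes of the 28 subunit genes, the 37 further subunits, the tricarboxylic acid cycle, glycolysis and all genes tested in 4 comparisons. Glycolysis lies at 1.21 in MB at 84 h over 24 h and at -1.55 in the pupa over 84 h, where the 28 subunit genes lie at -0.32 and -0.16.

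The next counts come from short lists, to be read against the shares of all genes tested (8.63% lower in MB at 84 h, and 10.7% lower and 11.2% higher in AL than in MB). Of 12 genes for assembly factors, carriers and other mitochondrial proteins, porin and Taz among them, 3 were lower in MB at 84 h than at 24 h and 0 higher. They included sesB, the adenine nucleotide carrier that exchanges ADP for ATP, at -0.64 ± 0.13 (SE, adjusted p = 0.000253). In AL at 84 h against 24 h sesB was also lower, at -0.73. Of 9 genes that express the mitochondrial genome, 2 were lower in AL than in MB at matched ages, bsf at -0.54 and mtSSB at -0.37, and 0 were higher. Of 12 regulators of mitochondrial and metabolic genes, 6 were lower and 2 higher in AL, among them foxo, a transcription factor of the insulin pathway, at -1.37. The regulator dm, the fly Myc, was lower in MB at 84 h than at 24 h, at -2.27, and its AL change minus its MB change was 1.93.

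Outside these lists, the 5 genes whose 8 group means correlated best with the mean course of the set were exba, Hsc70-5, CG2641, CG11885 and CNT1, with Pearson's r of 0.968 to 0.977. CG2641, CG11885 and CNT1 are low, at means of 1.34, 9.26 and 4.37 CPM over all libraries. These are the highest of all genes tested by construction, the 8 points share libraries and depth, and the values are given as a description.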

How the data were processed

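RNA of pooled neuroblasts was measured by RNA-seq in 24 libraries, 3 in each of 8 groups. Whole-number counts per gene were deposited by the authors for all libraries. Per the submitters' processing notes, HTSeq 0.6.1p1, STAR 2.4.0i, Bowtie2 2.1.0, cutadapt 1.7.1 and CASAVA were used, with builds dm3 and mm10, and no role or order is given. TPM values were deposited by the authors in a second table, whose dm3 positions are used here. The count file had 15437 rows: 15339 genes, 92 spike-ins, 5 summary rows and 1 unnamed row. Rows other than genes were left out of library sizes and tests.

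Counts were tested with edgeR 4.0.16 (R 4.3.3) by TMM scaling, filterByExpr by group and robust quasi-likelihood F-tests, with 1 mean per group over all 24 libraries (16 residual degrees of freedom) and Benjamini-Hochberg adjustment at 0.05 over 10324 genes. The pipeline was tested on simulated data. Alternatives were DESeq2 1.42.0, limma 3.58.1 on log2(TPM + 1), DESeq2 size factors, spike-in and cell number scaling, no filter, a replicate block, the compared groups alone, and leaving out each library. Called genes were all named up to 12 per comparison, and beyond that the 6 highest and 6 lowest; of other lists, up to 3 with the smallest adjusted p, and others named were chosen after their values were seen. The members and lists were chosen with earlier results of these data known. Current gene names came from a later annotation. No sequence is printed.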

Additional observations from a re-analysis of the deposited data

Results flagged for a closer look

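The AL and MB changes between 24 and 84 h differed, by the test of the difference itself, for RFeSP (1.03064 on the log2 scale, AL change minus MB change), ATPsyn-beta (0.671698) and SdhC (1.59771). In each, the mean at 84 h was above that at 24 h in AL and below it in MB. None of the 3 rises in AL was called, nor was the fall of SdhC in MB. Each of the 3 calls was lost in some fits that left out 1 library, as given above.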

How the results depend on the processing

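Single-gene results gave 1547 comparisons with an alternative, of which 1262 kept their direction and their side of the threshold, 284 kept their direction and missed the threshold, and 1 reversed. The reversal was Cyt-c-p in AL at 84 h against 24 h with spike-in and cell number scaling (0.122), 0.46 below the median of all genes. That scaling, chosen after the files were seen, took spike-in reads multiplied by cells; the planned wording, spike-in reads divided by cells, was not run. It changed the counts of called genes to 20 over the MB ages, 6 in AL at 84 h against 24 h, 1 in MB at 84 h against 24 h, 0 in the pupa against 84 h, 2 in the pupa against 24 h, 27 for AL against MB at 24 h, 1 at 50 h and 11 for the difference of changes. For the pupa against 84 h its median of all genes was 0.04. Over the MB ages its share of all genes called is not given here. DESeq2 gave 11 over the AL ages. limma gave 4 over the MB ages, 0 in AL at 84 h against 24 h (8 at an unadjusted p under 0.05), 2 in MB at 84 h against 24 h, 3 in the pupa against 24 h, 6 for AL against MB at 24 h and 0 for the difference of changes (3 at an unadjusted p under 0.05). A fit of the compared groups alone gave 4 over the AL ages and 0 in AL at 84 h against 24 h (5 at an unadjusted p under 0.05).

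Leaving out 1 library gave counts of 3 to 7 over the AL ages, 6 to 11 over the MB ages, 0 to 2 in AL at 84 h against 24 h, 2 to 5 in MB at 84 h against 24 h, 1 to 1 in the pupa against 84 h, 6 to 10 in the pupa against 24 h, 18 to 22 for AL against MB over matched ages, 8 to 12 at 24 h, 7 to 11 at 50 h, 2 to 4 at 84 h and 0 to 3 for the difference of changes. Replicate numbers did not pair the libraries: 84 correlations of the deviations of same-numbered libraries ran from -0.092 to 0.069, with 0 over 0.1. The replicate block gave counts of 4 over the AL ages, 11 over the MB ages and in the pupa against 24 h, and 22 for AL against MB over matched ages, and left the others as they were. Depth limits Cyt-c-d, which had 0 reads in 6 libraries.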
